A study of Rattus norvegicus with 35 samples.

Results

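Cultures of fibroblasts from the ventricles of neonatal rat hearts were irradiated with 8.5 Gy of X-rays (IR), and RNA was isolated 24 h later. These cultures and their sham-irradiated controls account for 6 of the 35 RG-U34A arrays of the study, and were taken by their titles: 3 arrays of irradiated cultures and 3 of sham-irradiated cultures. The other arrays hold the same cells after UVC or mechanical stress and CM-enriched (cardiomyocyte-enriched) cultures or fractions after each of the 3 stressors, with the controls of each. Both groups of cultures had been separated from the myocytes by pre-plating, subcultured in serum, moved to medium with less serum a day before treatment, and were confluent at irradiation. Sham-irradiated cells were kept at room temperature while the others received the dose, also at room temperature. The strain and the number of animals behind a culture are not given in the sources used here. The title of sham culture 1 gives a dose of 0 Gy, without the word sham and without a time. Irradiated and sham-irradiated cultures with the same number (no number counts as 1) were compared as the pair of 1 experiment. P values measure how much the differences within such pairs varied between experiments, pooled over all comparisons of the fit. They do not say how cultures of other animals would vary.

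Ionising radiation breaks DNA, and the damage kinases ATM and ATR stabilise the transcription factor p53. p53 then turns on genes that stop the cell cycle, repair DNA, remove the cell or shut p53 down again, among them the cyclin-dependent kinase inhibitor p21 (Cdkn1a) and the ubiquitin ligase Mdm2. p21 holds the pocket proteins of the retinoblastoma family active, and with them the DREAM complex, which silences the genes of G2 and mitosis. In fibroblasts this arrest can last for days, whereas cardiomyocytes largely leave the cell cycle around birth.

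RNA level was measured as a normalised intensity, a unit without absolute meaning whose lower limit (floor) was set to 6.88. The share of probe-sets at the floor ran between 18.3% and 22.7% on the 6 arrays. Differences are log2 values, X-rays minus sham, with their standard error (SE) from 1 limma fit over all 35 arrays, and "rose" or "fell" is kept for an adjusted p under 0.05 over 8740 probe-sets. The 13 fibroblast markers summed to 39063 to 42653 in irradiated cultures and 40407 to 42009 in sham-irradiated cultures, against 23299 to 29830 over the 6 CM arrays of the X-ray experiments. The 24 cardiomyocyte markers summed to 7629 to 18544 after X-rays and 7280 to 18749 after sham, against 65704 to 83000 in CM-enriched fractions, so that myocyte transcripts were present at a lower level. Within an experiment the cardiomyocyte sum was close in both cultures: 18544 against 18749 in experiment 1, 7629 against 7280 in experiment 2 and 13356 against 14888 in experiment 3, each irradiated culture first. Of the 18 macrophage and leukocyte markers, 4 lay at the floor on all irradiated arrays and 5 on all sham arrays.

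The cultures of experiment 3 stood apart from the others. Spearman correlation over all probe-sets was 0.978 between the irradiated and the sham culture of experiment 3, and 0.922 to 0.931 between these 2 arrays and the other 4, which correlated at 0.960 to 0.969 among themselves. On both arrays of experiment 3, 124 of 8740 probe-sets (63 of 4736 genes) were at least 4-fold above every array of experiments 1 and 2. At least 4-fold below were 30 of 8740 probe-sets (13 of 4736 genes). The list counts that follow stand against these shares. Of 32 genes for chemokines, cytokines and inducible inflammatory enzymes, 18 were among the higher ones, as were 4 of 25 interferon response and MHC class I genes and 3 of 28 matrix protease genes. The chemokine Ccl5 had 2472 in the irradiated and 3167 in the sham culture of experiment 3, against the floor on the other 4 arrays. Il6 had 1495 and 954 there, against 15.7 and 17.6 after X-rays and 12.3 and 12.4 after sham in experiments 1 and 2. Ptgs2, the inducible cyclooxygenase, had 1430 and 1565 there, against 31.8 and 40.3 after X-rays and 53.7 and 58.5 after sham. Many of the 63 genes were on none of the lists, such as the glucose transporters Slc2a1 and Slc2a3 and the glycolysis genes Aldoc and Pfkl. Cholesterol synthesis genes went the other way, with 4 of 16 at least 4-fold lower (Idi1, Acat2, Fdft1 and Msmo1). None of the 26 mitosis genes, none of the 13 fibroblast markers and 1 of the 14 p53 targets (Ier3) differed to this extent. Because both cultures of experiment 3 carried this difference, it cancels in the difference within the pair as far as it was equal. Its part in the results was not tested, and the calls and main values are given with and without experiment 3.

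**Figure D1:**
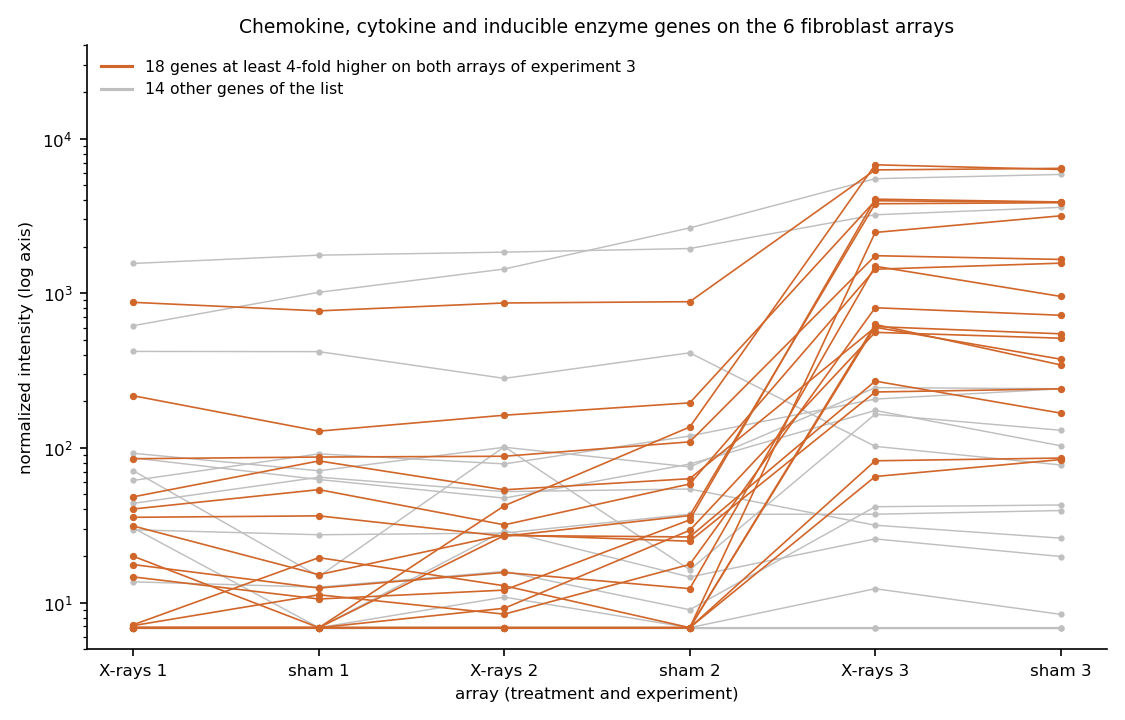
Normalised intensity (log scale) of the 32 chemokine, cytokine and inducible enzyme genes on each of the 6 arrays, irradiated cultures left of sham-irradiated cultures, 1 line per gene, with the 18 genes at least 4-fold higher on both arrays of experiment 3 set off by colour. The coloured genes were chosen for their step between experiment 3 and the other 4 arrays, and their levels in the irradiated and the sham culture of experiment 3 can be compared, as for Ccl5 (2472 and 3167).

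X-rays raised 3 probe-sets (0.0343% of 8740) and lowered 4 (0.0458%). The rises were those of Ephx1, Mdm2 and Abcb1b, and the falls those of Racgap1, Cdc20, Top2a and Pttg1, which all serve chromosome segregation or cell division. Counted by an unadjusted p under 0.05, 268 (3.07%) lay higher and 331 (3.79%) lower. At the level of the study, an adjusted p under 0.005, 1 (0.0114%) was higher and 0 lower. All 7 kept their direction under 12 other settings, in which Ephx1 passed the threshold 10 times, Mdm2 and Pttg1 8 times, Racgap1 7 times, Top2a and Abcb1b 6 times and Cdc20 4 times. With limma, 5 probe-sets were called without experiment 1 (1 of the 7, Ephx1), 0 without experiment 2 (273 higher and 295 lower at an unadjusted p under 0.05) and 31 without experiment 3 (all 7). Without experiment 3 the differences were 1.55 for Ephx1, 1.197 for Mdm2, 1.41 for Abcb1b, -1.86 for Racgap1, -1.18 for Cdc20, -2.05 for Top2a and -2.43 for Pttg1. The study's rule that at least 50% of a gene's probe-sets pass was applied at an adjusted p under 0.05, not at the study's 0.005. By it 2 genes were higher (Abcb1b and Ephx1) and 3 lower (Cdc20, Pttg1 and Racgap1), without Mdm2 and Top2a.

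Ephx1, the microsomal epoxide hydrolase and one of the listed p53 targets, gave the smallest p value of the comparison. It had 906, 999 and 754 in irradiated cultures 1, 2 and 3, and 348, 305 and 291 in sham-irradiated cultures 1, 2 and 3. All irradiated cultures lay far above all sham-irradiated ones, and the rise was 2.81-fold (log2 difference 1.49, SE 0.15, adjusted p = 0.00248). Mdm2, which marks p53 for degradation and is itself switched on by p53, had 717, 717 and 992 after X-rays and 299.7, 326 and 513 after sham. These groups did not overlap either, and Mdm2 rose 2.17-fold (1.12, SE 0.13, adjusted p = 0.0112). Another Mdm2 probe-set had 245, 184 and 324 after X-rays and 101, 84.7 and 87.6 after sham, a difference of 1.43 (SE 0.26) that missed the threshold (adjusted p = 0.0734), and a further one gave 0.33 (adjusted p = 0.828).

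Abcb1b, the drug efflux pump P-glycoprotein, had 158, 192 and 1096 after X-rays and 74.4, 57.5 and 578 after sham. It was higher after X-rays within each experiment, but both cultures of experiment 3 lay above all others, so that the groups overlapped. The rise of 2.38-fold (1.25, SE 0.19, adjusted p = 0.0386) was seen only against the culture of the same experiment, and the adjusted p was 1 without pairing.

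**Figure D2:**
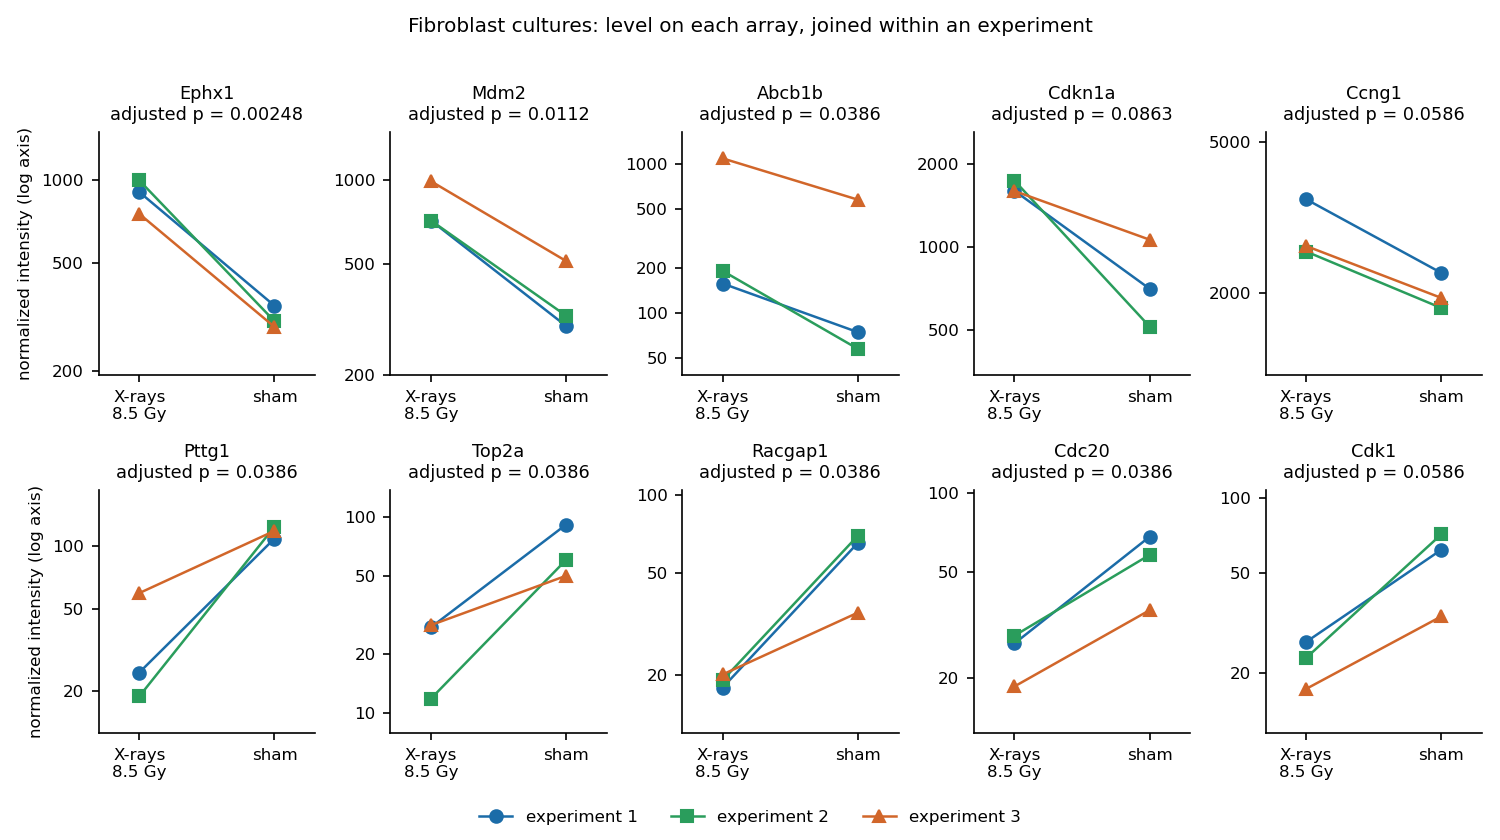
Normalised intensity (log scale) of 5 p53-linked genes (Ephx1, Mdm2, Abcb1b, Cdkn1a, Ccng1) and 5 mitosis genes (Pttg1, Top2a, Racgap1, Cdc20, Cdk1), with the irradiated culture left of the sham-irradiated culture and a line joining the 2 cultures of an experiment. The lines of the upper genes run down to the sham side and those of the lower genes run up in all 3 experiments.

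The arrays held 14 of 37 listed p53 targets. Of these, 2 rose (Ephx1 and Mdm2, against 0.0633% of all 4736 genes) and 0 fell. At an unadjusted p under 0.05, 7 (50%) were higher and 0 lower, against 3.53% higher and 3.78% lower of all genes. Their median difference was 0.28 (0.45, 0.31 and 0.30 in experiments 1, 2 and 3, and 0.35 in the fit without experiment 3), beside 0.00 for all genes. In 9 of 14 the irradiated culture was higher in all 3 experiments, as in 11.1% of all genes, and in 5 (Ephx1, Mdm2, Ccng1, Cdkn1a and Zmat3) the groups did not overlap, as in 2.85% of all genes.

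Cdkn1a, which encodes p21, had 1598, 1739 and 1594 after X-rays and 703, 512 and 1061 after sham. The irradiated cultures were alike and all above the sham-irradiated ones, of which culture 3 was the highest. The difference of 1.18 (SE 0.23) missed the threshold (adjusted p = 0.0863), and passed it at 1.47 without experiment 3 (adjusted p = 0.0401). A second Cdkn1a probe-set gave 0.70 (adjusted p = 0.649). Ccng1, the p53 target cyclin G1, had 3532, 2576 and 2663 after X-rays and 2264, 1831 and 1946 after sham (0.53, SE 0.09, adjusted p = 0.0586). Its groups did not overlap, although the difference was small. Zmat3, a zinc finger protein that binds RNA, had 228, 331 and 213 after X-rays and 126, 181 and 172 after sham (0.68, SE 0.21, adjusted p = 0.485). Gdf15, a secreted stress factor of the TGF-β family, had 132, 101 and 209 after X-rays and 76.1, 42.1 and 132 after sham (0.91, SE 0.30, adjusted p = 0.562). It was higher within each experiment, but irradiated culture 2 lay below sham culture 3. The growth arrest gene Gadd45a gave 0.34, the DNA methyltransferase Mgmt, which repairs alkylated guanine, 0.22, and the tetraspanin Cd82 0.13, each higher in all 3 experiments and none past the threshold. The other 5 lay between -0.15 and 0.07: the growth factor Tgfa, the phosphatase Dusp5, the UV damage sensor Ddb2, the death receptor Fas and Ier3, an early response gene.

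The genes of mitosis were the group with the most calls. The arrays held 26 of 75 listed genes, of which 4 fell (against 0.0845% of all genes) and 0 rose. At an unadjusted p under 0.05, 12 (46.2%) were lower and 0 higher. The median difference was -0.38 (-0.55, -0.78 and -0.19 in experiments 1, 2 and 3), and 11 genes were lower in all 3 experiments, as were 12.4% of all genes, while 1 (Wee1) was higher in all 3. The median was -0.61 without experiment 3, and -0.022 with a floor at the 40th percentile of the intensities, which gives all values below it the same level. The groups did not overlap for 9 of 26, all lower after X-rays, as for 2.32% of all genes. In RNA of a whole culture, fewer dividing cells and less RNA of these genes per cell cannot be told apart.

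Pttg1 (securin), which keeps sister chromatids from being separated before anaphase, had 24.6, 18.9 and 59.3 after X-rays and 109, 124 and 118 after sham. The sham-irradiated cultures were alike, and irradiated culture 3 kept more of the transcript than the other 2. Pttg1 fell 3.87-fold (-1.95, SE 0.30, adjusted p = 0.0386). Top2a, the topoisomerase that untangles chromosomes before they separate, had 27.4, 11.8 and 28.1 after X-rays and 91.9, 60.7 and 50.3 after sham, a fall of 3.14-fold (-1.65, SE 0.25, adjusted p = 0.0386) without overlap. The other 2 Top2a probe-sets gave -0.93 and -0.26 and were not called. Racgap1, a part of the centralspindlin complex that sets up cytokinesis, had 17.9, 19.2 and 20.2 after X-rays and 65.2, 69.5 and 34.99 after sham. The irradiated cultures were alike, and sham culture 3 was nearer to them than the other sham cultures were. Racgap1 fell 2.84-fold (-1.51, SE 0.22, adjusted p = 0.0386). Cdc20, the activator of the anaphase-promoting complex, had 26.9, 28.8 and 18.5 after X-rays and 68.2, 58.2 and 36.0 after sham. It was lowest in experiment 3 in both groups and fell 2.15-fold (-1.11, SE 0.17, adjusted p = 0.0386).

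Cdk1, the kinase that drives entry into mitosis, had 26.6, 23.0 and 17.3 after X-rays and 62.1, 71.5 and 33.6 after sham (-1.27, SE 0.21, adjusted p = 0.0586). Its partner cyclin B1 (Ccnb1) had 11.4, 13.8 and 25.2 after X-rays and 55.6, 48.1 and 42.3 after sham (-1.61, SE 0.29, adjusted p = 0.0734), and a second Ccnb1 probe-set gave -1.81 (adjusted p = 0.0586). The second probe-set was at the floor in irradiated cultures 2 and 3, and ran from -2.10 to -0.30 over the 12 other settings. Neither gene overlapped between the groups, and both Ccnb1 probe-sets passed the threshold without experiment 3 (-2.04, adjusted p = 0.0199, and -2.10, adjusted p = 0.0434). Stmn1 (stathmin), which destabilises microtubules, had 129, 115 and 50.9 after X-rays and 427, 267 and 94.1 after sham (-1.28, SE 0.24, adjusted p = 0.0863). The hyaluronan receptor Hmmr gave -1.01, the spindle checkpoint kinase Bub1b -0.87 (0.34 for another probe-set) and the kinase Plk1 -0.29, each lower in all 3 experiments. Bub1b was at the floor in irradiated cultures 1 and 3, and Hmmr in irradiated culture 2. Fam111a was at the floor in all irradiated cultures and had 15.3, 13.3 and 6.88 after sham. The kinase Aurkb was at the floor in all irradiated cultures and had 24.8, 28.3 and 6.88 after sham. Not every gene of the list took part: the transcription factor Foxm1 gave -0.00, Kif3c 0.00, the condensin subunit Smc4 0.05, the anaphase-promoting complex subunit Anapc5 -0.04 and Wee1, the kinase that holds Cdk1 inactive, 0.21.

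**Figure D3:**
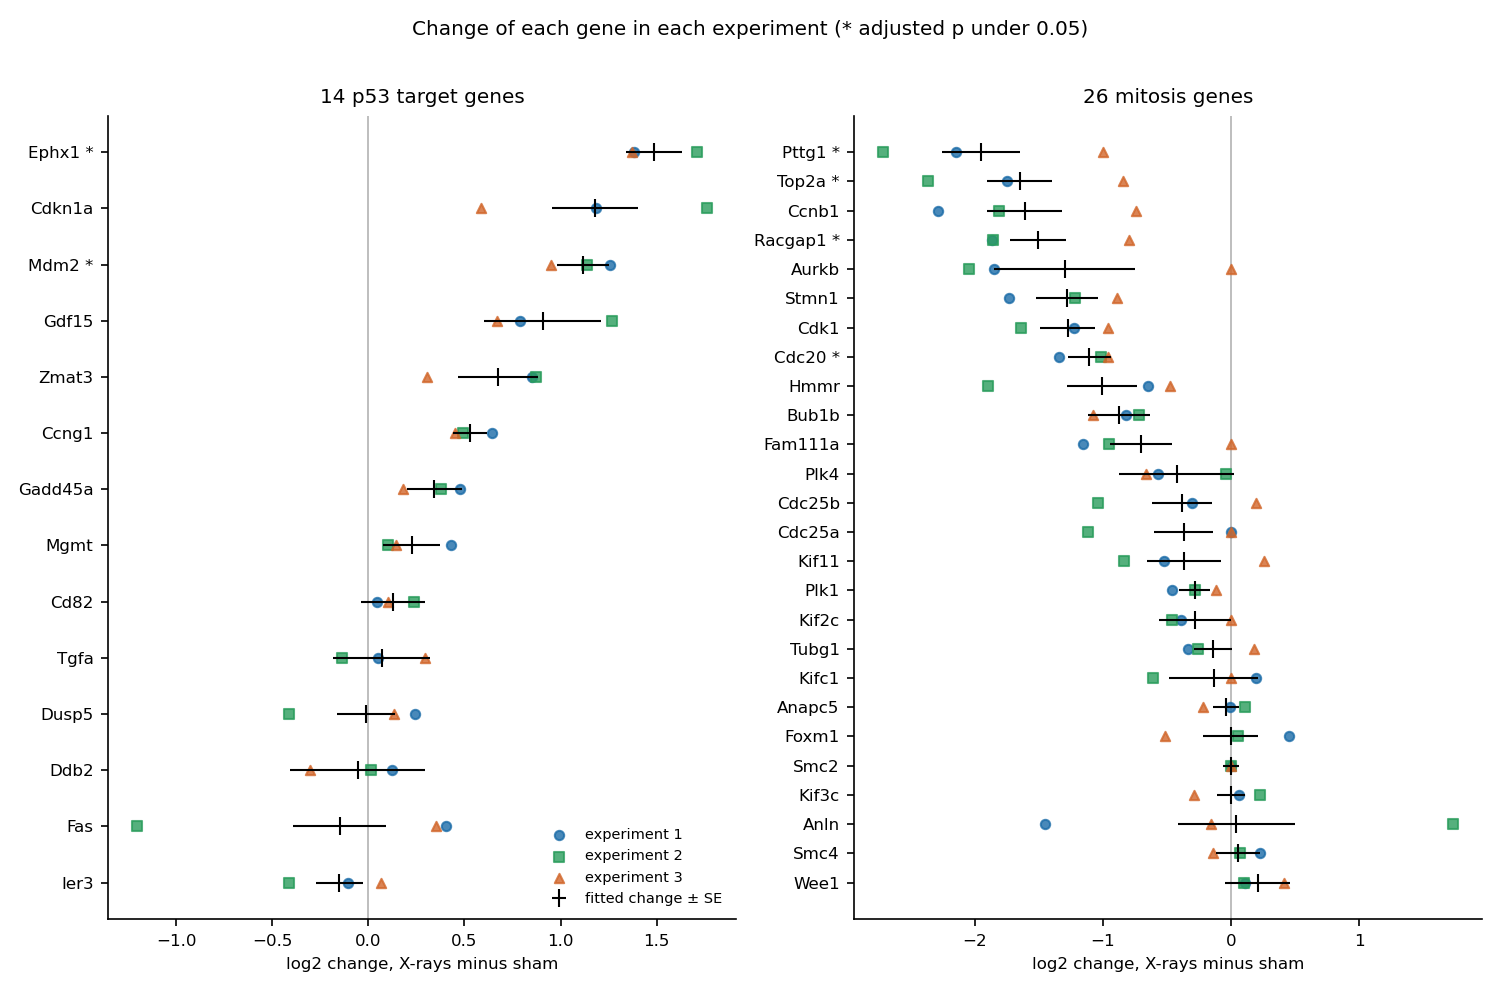
Log2 difference (X-rays minus sham) of each of the 14 p53 targets and 26 mitosis genes in experiments 1, 2 and 3 (small points) with the fitted difference and its SE (large point and bar). Most p53 targets lie right of 0 and most mitosis genes left of it, with experiment 3 nearest to 0 for many of the mitosis genes.

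Promoters of mitosis genes often carry the CHR element (TTTGAA), at which DREAM binds, and CCAAT boxes, at which NF-Y binds. RefSeq windows (rat build GRCr8) of 250 bases before to 50 after the start were searched for both words on both strands. TTTGAA was in 13 of the 22 mitosis genes with a window (59.1%) and in 2 of the 10 p53 targets with one, against 11.7% of 3879 genes on the array and 18.3% of all 33469 windows. CCAAT was in 17 of 22 mitosis genes (77.3%) and in 4 of 10 p53 targets, against 38.3% of the genes on the array and 37.5% of all windows. Both words were in 10 of 22 mitosis genes, against 4.85% of the genes on the array. A match describes the letters and is not a binding site. The 120 bases before the start of 3 genes that fell and of Cdk1 are shown because both words lie close together there, with both words in capitals (TTTGAA and CCAAT, or TTCAAA and ATTGG where the word is on the other strand).
Cdc20 (chr5:137255800-137255919, minus strand): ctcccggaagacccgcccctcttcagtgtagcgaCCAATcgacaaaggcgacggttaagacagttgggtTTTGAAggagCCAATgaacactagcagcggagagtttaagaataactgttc
Pttg1 (chr10:28406327-28406446, minus strand): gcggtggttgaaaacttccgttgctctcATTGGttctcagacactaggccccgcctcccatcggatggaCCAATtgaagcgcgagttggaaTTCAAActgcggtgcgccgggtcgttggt
Top2a (chr10:84473094-84473213, minus strand): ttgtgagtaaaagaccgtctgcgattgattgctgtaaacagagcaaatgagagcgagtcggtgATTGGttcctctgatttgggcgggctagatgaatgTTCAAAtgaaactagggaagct
Cdk1 (chr20:19265173-19265292, plus strand): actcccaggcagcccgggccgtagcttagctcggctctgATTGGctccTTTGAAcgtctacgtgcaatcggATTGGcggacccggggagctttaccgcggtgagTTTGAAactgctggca
The word nearest to the start began 51 bases before it in Cdc20, 29 in Pttg1, 22 in Top2a and 16 in Cdk1 for TTTGAA. Among the genes that rose, the Ephx1 window held neither word, the Mdm2 window both and the Abcb1b window CCAAT alone. The Cdkn1a window held neither. Racgap1 had no window. The windows of Ccnb1, Stmn1 and Mcm6, which were lower after X-rays without passing the threshold in the main fit, held CCAAT alone.

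Among the genes of DNA synthesis, chromatin, repair and G1, none was called on the brightest probe-set. The counts that follow here and in the other lists stand against the 3.53% higher and 3.78% lower of all genes at an unadjusted p under 0.05. Of 21 genes of DNA replication and nucleotide synthesis, 4 were lower (3.78% of all genes) at an unadjusted p under 0.05 and 0 higher, with a median of -0.12 (-0.35 and -0.36 in experiments 1 and 2, and 0.18 in experiment 3). The replicative helicase subunit Mcm6 had 50.4, 51.2 and 44.5 after X-rays and 109.6, 111 and 55.1 after sham (-0.85, SE 0.17, adjusted p = 0.103), and a second probe-set gave -1.39 (adjusted p = 0.0586). Sham culture 3 lay near the irradiated level, and Mcm6 passed the threshold at -1.12 without experiment 3 (adjusted p = 0.020004), as did the helicase subunit Mcm5 (-1.17, adjusted p = 0.0479). The primase subunit Prim1 gave -0.68 and the flap endonuclease Fen1 -0.43. Of 11 histone and proliferation-linked chromatin genes, 6 (54.5%) were lower at an unadjusted p under 0.05, with a median of -0.30 (-0.29, -0.27 and -0.15 by experiment). The histone variant gene H2az1 had 387, 483 and 97.1 after X-rays and 969, 668 and 158 after sham (-0.83, SE 0.23, adjusted p = 0.401). It was much dimmer in experiment 3 than in the others, and lower after X-rays in each. The lamin Lmnb1 gave -0.91 (irradiated cultures 1 and 2 at the floor), the heterochromatin protein Cbx5 -0.59, H2ax -0.48, and the lamina protein Tmpo and the chromatin protein Hmgb1 -0.30 each. Of 20 repair and damage signalling genes, 3 were lower at an unadjusted p under 0.05 (H2ax, the uracil glycosylase Ung and the polymerase Parp2, the last pair at -0.50 each), and the median was -0.04. Of 15 genes of G1 control, 1 was lower and the median was -0.04.

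Of 17 apoptosis genes, which decide on cell survival, 3 were higher at an unadjusted p under 0.05, against 3.53% of all genes, and none was called (median -0.01). Bcl2l1, which encodes the survival protein Bcl-xL, had 255, 219 and 280 after X-rays and 157, 146 and 187 after sham, without overlap (0.62, SE 0.14, adjusted p = 0.231). Bcl2l11, which encodes the death-promoting protein Bim, gave 0.56, and the death ligand Faslg, near the floor on most arrays, 1.02.

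Fibroblasts build the extracellular matrix. Of 43 matrix genes, 2 were higher and 1 lower at an unadjusted p under 0.05, with none called and a median of 0.04. Col1a1 had 8756, 7472 and 8209 after X-rays and 8209, 7364 and 8756 after sham (0.01, SE 0.17), and Col1a2 had 7472, 6866 and 5940 after X-rays and 6770.2, 7111 and 6274 after sham (0.00). Both chains of type I collagen thus overlapped between the groups. For the brightest probe-sets, quantile normalisation sets the level by rank, and 8756 and 8209 recur in both groups. A change in such bright genes could therefore be hidden. Tenascin C (Tnc) gave 0.19 and biglycan (Bgn) 0.10. Fibromodulin (Fmod), a small proteoglycan that binds collagen, was named for 1 of its 2 probe-sets, with 71.0, 61.3 and 75.2 after X-rays and 143, 126 and 94.6 after sham, without overlap (-0.79, adjusted p = 0.0904). This probe-set passed the threshold at -1.02 without experiment 3 (adjusted p = 0.0222), whereas the brighter one had 129.8, 113 and 96.9 after X-rays and 160.4, 134 and 95.2 after sham, with overlap (-0.17, adjusted p = 1). The gelatinase Mmp2 had 3991, 4756 and 3624 after X-rays and 2711, 3307 and 3272 after sham, again without overlap (0.41, SE 0.09, adjusted p = 0.162), and 0.54 without experiment 3 (adjusted p = 0.0401). Its dimmer probe-set went the other way (-0.58, adjusted p = 0.782). Of 28 protease and inhibitor genes, 2 were higher at an unadjusted p under 0.05.

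Of 13 fibroblast markers, 1 (S100a4, -0.22) was lower at an unadjusted p under 0.05. Of 11 smooth muscle and myofibroblast markers, 3 were lower (the actin-binding protein Tagln at -0.25, desmin (Des) at -0.35 and the tropomyosin Tpm2 at -0.44), none was called, and their summed level was 14643, 14172 and 14977 after X-rays and 15828, 17361 and 14942 after sham. The fibrosis factor Tgfb1 gave 0.41 (adjusted p = 0.817) and Fgf2 0.14. Of 47 growth factor and receptor genes, 4 were higher and none was called. Among these, follistatin (Fst), which binds activin, had 320, 246 and 812 after X-rays and 219.8, 157 and 511 after sham (0.62, SE 0.11, adjusted p = 0.0814). Like Abcb1b, Fst was higher within each experiment and highest in both cultures of experiment 3. Fgf9 gave 0.58 and Gas6, a ligand of the Axl receptors, 0.37.

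Of 24 heat shock genes, 3 were higher at an unadjusted p under 0.05, against 3.53% of all genes, and none was called (Hsf1, the master regulator of the group, at 0.35, and the chaperones Hsph1 at 0.36 and Hsp90ab1 at 0.23). Of 35 oxidative stress enzymes 2 were higher, of which Ephx1, also on the p53 list, was the one called. Of 32 chemokine, cytokine and inducible enzyme genes 2 were higher and 1 lower. The inducible nitric oxide synthase Nos2 had 71.1, 102 and 165 after X-rays and 14.8, 16.3 and 130.0 after sham, which is a clear gap in experiments 1 and 2 and a small one in experiment 3 (1.75, adjusted p = 0.713). The stress factor Ddit3 gave 0.01 and the natriuretic peptide gene Nppa -0.00. Of 16 cholesterol genes 1 was higher (Fdft1, 0.29).

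**Figure D4:**
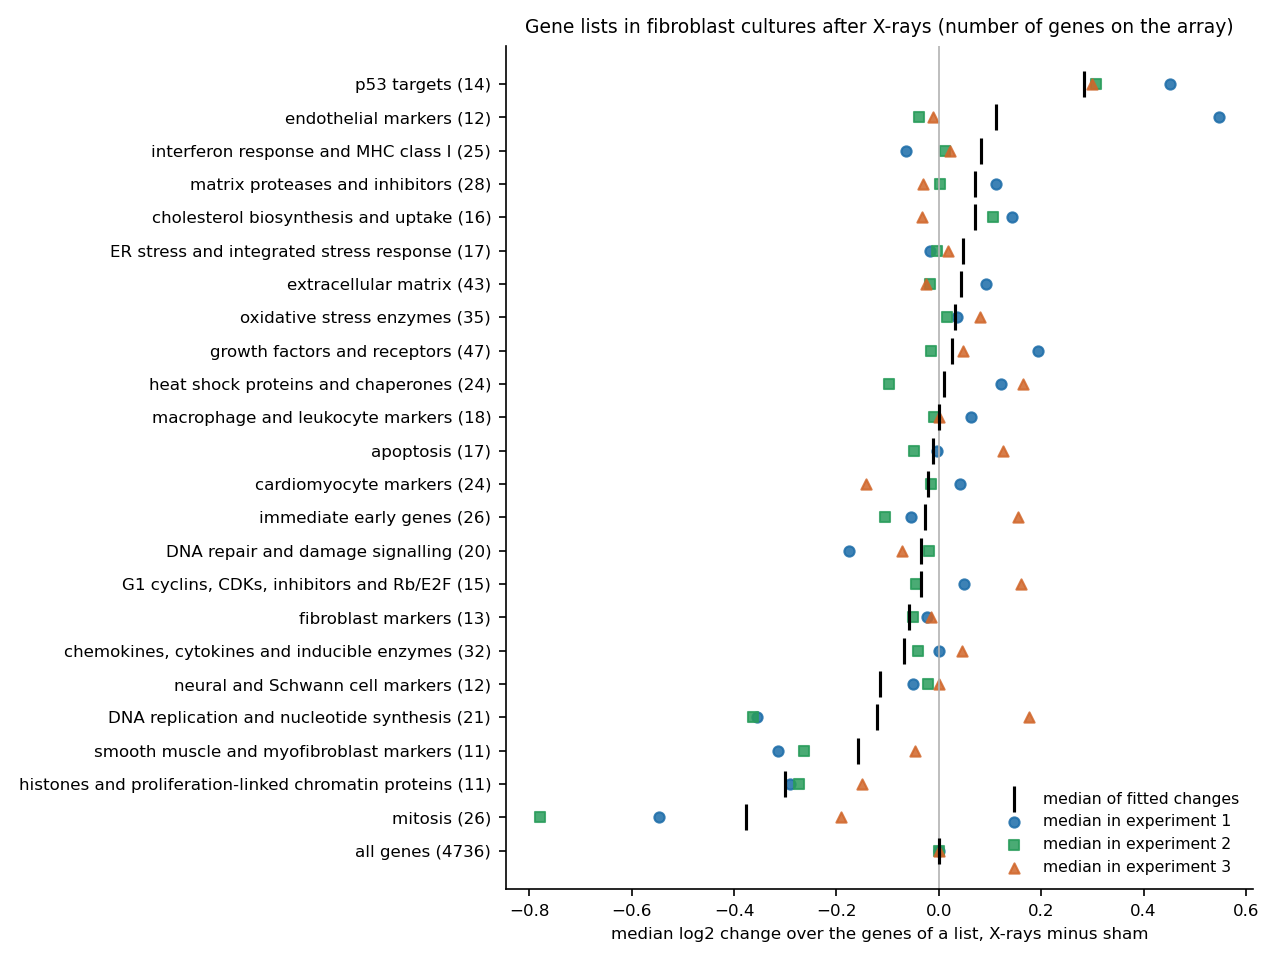
Median log2 difference (X-rays minus sham) of each of 23 gene lists and of all 4736 genes, with the medians of experiments 1, 2 and 3 as separate points. Mitosis genes (-0.38) and histone genes (-0.30) lie lowest and p53 targets (0.28) highest, and most other lists lie near the 0.00 of all genes.

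Outside the lists, the probe-sets with the smallest p values and the same direction in each experiment included, on the higher side, clusterin (Clu, a secreted chaperone, 0.42), transketolase (Tkt, of the pentose phosphate pathway, 0.52), and the prion protein gene Prnp (0.39), and on the lower side Emc8 (-0.67), Tmsb15b2 (-0.64) and Reg3b (-0.55). The aldo-keto reductase Akr1c3 gave 1.21 on its dimmer probe-set and 0.09 on the brighter one. The surfactant gene Sftpc had 7.88, 18.7 and 21.4 after X-rays and was at the floor on all 3 sham arrays. None of these passed the threshold. Without experiment 3, 31 probe-sets were called (13 higher and 18 lower), including all 7 named above, and 17 of the 31 had the same sign in experiment 3. Not all of the rest went the other way: several, such as Acot1 and Apoc3, lay at the floor in both cultures of experiment 3 and have no sign there. Clu and Tkt were among the 31, as was, chosen after its values were seen, the Z-disc gene Ldb3 (1.28, adjusted p = 0.000355), which was lower after X-rays in experiment 3.

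The change after X-rays was set against that of CM-enriched fractions given the same dose, on different arrays. These were grown in horse serum, were separated by centrifugal elutriation after the 24 h, and still held non-myocytes. The fibroblasts were subcultured in foetal bovine serum and were not elutriated, so that cell type and handling cannot be told apart. In CM-enriched fractions, 25 probe-sets (0.286%) rose and 39 (0.446%) fell. Ephx1 rose by 2.19 in CM-enriched fractions against 1.49 in fibroblasts, a difference between the populations of -0.70 (SE 0.21, adjusted p = 0.386). Mdm2 rose by 1.08 in CM-enriched fractions (difference 0.03, SE 0.19) and Cdkn1a by 1.73 (difference -0.55, SE 0.32). The 4 mitosis genes that fell in fibroblasts also fell in CM-enriched fractions, with changes of -1.52 for Pttg1, -1.85 for Top2a, -1.85 for Racgap1 and -1.82 for Cdc20. The differences between the populations were -0.44 (SE 0.43), 0.20 (SE 0.36), 0.34 (SE 0.31) and 0.71 (SE 0.24), with adjusted p values of 0.445 or more. The median of the mitosis list was -0.38 in fibroblasts and -1.31 in CM-enriched fractions, with 4 and 14 of 26 genes called lower, the second against 0.549% of all genes. In the test of the difference, 1 of 26 passed, against 0.0422% of all genes higher. This was Kifc1, which was near the floor in fibroblasts, so that a fall could not be measured there. The same holds for Kif2c (8.99, 9.49 and 6.88 after sham). Fam111a was lower after X-rays in experiments 1 and 2, but its irradiated cultures lay at the floor, which limits the size of the difference. That these values miss the threshold does not show that the populations responded alike.

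The difference between the populations passed the threshold in 3 probe-sets higher (0.0343%) and 3 lower (0.0343%) in fibroblasts. None of the 6 passed when any 1 fibroblast experiment was left out (adjusted p of 0.0747 to 0.220), nor with no block or a random block. Sprr1a, a cornified envelope protein that stressed cardiomyocytes make, had 31.1, 47.5 and 34.9 in fibroblasts after X-rays and 32.2, 33.4 and 33.9 after sham, with overlap (0.17), whereas it rose by 2.56 in CM-enriched fractions. The brighter Sprr1a probe-set gave 0.26 in fibroblasts and 1.77 in CM-enriched fractions, and the difference was not past the threshold (-1.51, adjusted p = 0.517). The lipid desaturases Scd and Scd2 gave 0.27 and 0.57 in fibroblasts, against falls (-0.93 and -0.87) in CM-enriched fractions. The second Scd probe-set gave a difference of 0.04 (adjusted p = 1). It gave no change at all in CM-enriched fractions, as values at the floor do, so a fall there could not be measured. The brightest of the other Scd2 probe-sets gave 0.68 (adjusted p = 0.462), and the rest 0.60, 0.82, 1.48 and -0.44. The last of these lay at the floor in all irradiated fibroblast cultures. No other probe-set of either gene passed. The mitotic kinesin Kifc1 was near the floor in fibroblasts under both conditions (-0.14) and fell by 3.56 in CM-enriched fractions. Dpep1, a membrane dipeptidase, gave -0.21 against 1.41, with a second probe-set that did not follow (-0.18 against -0.11), and Hsd11b1, which activates glucocorticoids, gave -0.20 against 0.62. None of these 6 probe-sets was called in fibroblasts themselves.

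Fibroblasts 24 h after UVC, on other arrays with their own sham-irradiated controls, showed 1024 probe-sets higher (11.7%) and 978 lower (11.2%). The doses of X-rays and UVC are not matched, so the values stand side by side for each gene. Abcb1b rose by 1.25 after X-rays and 4.23 after UVC, Ephx1 by 1.49 and 2.89, and Mdm2 by 1.12 and 2.49. Cdkn1a gave 1.18 after X-rays and rose by 3.20 after UVC. The 4 mitosis genes that fell after X-rays did not fall after UVC: Pttg1 gave -0.06, Top2a -0.27 and Racgap1 -0.30, and Cdc20 rose by 0.83 (adjusted p = 0.00293). The median of the mitosis list after UVC was 0.00, with 3 genes raised and 0 lowered, against 13.4% and 12.9% of all genes. The change after X-rays minus that after UVC passed the threshold in 635 probe-sets higher (7.27%) and 622 lower (7.12%), and in 9 of 26 mitosis genes, all lower, against 8.11% of all genes. It was -1.93 for Cdc20 (SE 0.24, adjusted p = 0.000183), -1.89 for Pttg1 (SE 0.43, adjusted p = 0.0100), -1.38 for Top2a (SE 0.36, adjusted p = 0.0216) and -1.20 for Racgap1 (SE 0.31, adjusted p = 0.0197). Of the 14 p53 targets, 7 were lower and 2 higher in this difference (8.28% of all genes were higher), with Ephx1 at -1.40 (adjusted p = 0.000623) and Mdm2 at -1.38 (adjusted p = 0.000384). One of the higher pair, Mgmt, gave 0.22 after X-rays and fell by 1.84 after UVC, although its second probe-set gave 0.13 and 0.07.

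**Figure D5:**
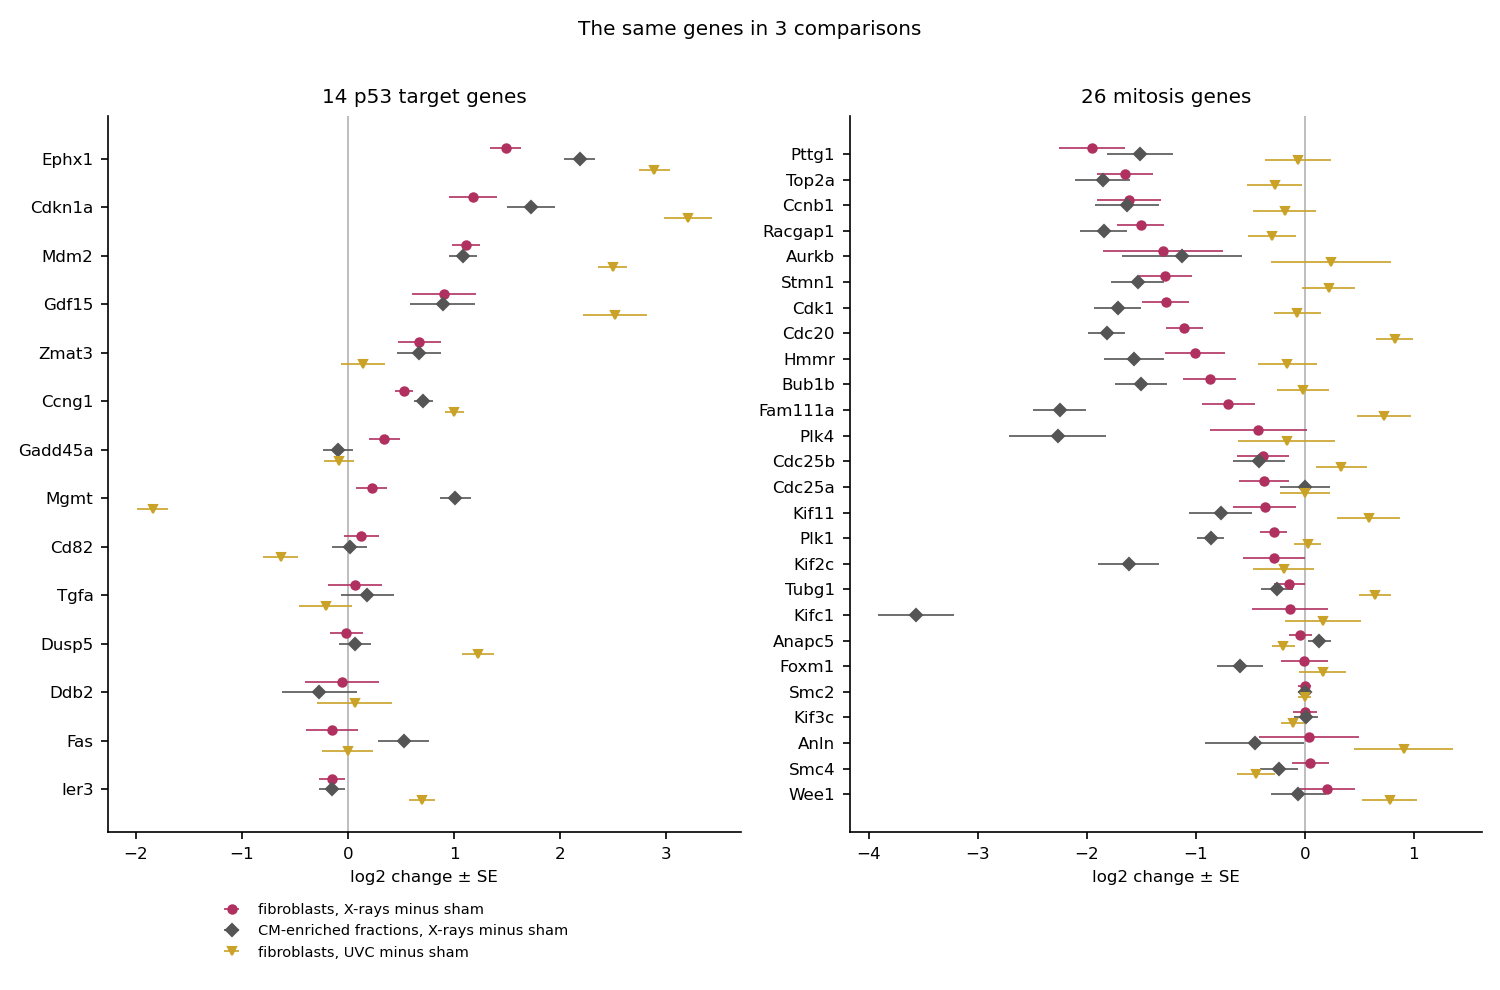
Log2 difference (treated minus sham) of the 14 p53 targets and 26 mitosis genes in fibroblasts after X-rays, CM-enriched fractions after X-rays and fibroblasts after UVC. p53 targets lie mostly above 0 in all 3 comparisons, while mitosis genes lie mostly below 0 after X-rays in both populations (medians -0.38 and -1.31) and about 0 after UVC (0.00).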

How the data were processed

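Each culture gave RNA for 1 RG-U34A array. The deposited values are linear intensities, 1 per probe-set and array. The methods describe gcrma, VSN and modelling of probe signals. The deposited intensities do not come from that model, and the software that made them is not given in the sources used here. No intensity has a depth, and precision is limited by the number of arrays (median SE 0.21, and 0.34 for probe-sets with a mean intensity of 11.2 to 41.1).

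Here all arrays were scaled to a common 75th percentile, bounded below by the 20th percentile of the scaled intensities (6.88), log2-transformed and quantile normalised. Of 8799 probe-sets, 59 controls were left out. A single gene symbol was found for 7006 of the rest, more than 1 for 308 and none for 1426. Gene numbers matched 6985 to the RefSeq gene table. limma 3.58.1 in R 4.3.3 (lmFit, and eBayes with a variance trend) fitted all 35 arrays, so that all groups share 1 estimate of the spread, with the numbered experiment within population and stressor as a block, after the term for the experiment in the study's model (11 residual degrees of freedom). Tests were two-sided with Benjamini-Hochberg adjustment over the 8740 probe-sets of a comparison. Gene lists use the brightest probe-set of a gene (4736 genes) and were described by counts and medians, without a set test. The pipeline was tested on simulated data.

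The numbers in the titles pair the cultures. In each pair, deviations from the group means correlated (0.51, 0.51 and 0.80, against at most 0.35 with another number). The 0.35 was between cultures numbered 1 and 2. Because experiment 3 stood apart in both groups, such deviations correlate in pair 3 and among cultures 1 and 2 whatever the pairing. The check therefore says little on which of cultures 1 and 2 belong together. Scan records were used for the 4 arrays of experiments 1 and 2, which share 1 scan day, 1 hybridisation time and 1 fluidics protocol. None was used for experiment 3, and array lots are not given, so scan and lot could not be tested as batches.

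Named genes are all called probe-sets, the 12 smallest p values in each direction with 3 of 3 experiments agreeing, all p53 targets and mitosis genes, the 3 smallest p values of each other list, genes the study names, and called differences between populations or stressors. Members and lists were chosen with earlier results of these data known. Alternatives were no block, a random block (statmod 1.5.0, correlation 0.31), scaling without quantile normalisation, a pseudocount of 16 in place of the floor, a higher floor (40th percentile), a filter on values at the floor, no variance trend, fits of 6 or 18 arrays, and leaving out each experiment. Promoter windows came from RefSeq (GRCr8), matched by gene number and then symbol, for 22 of 26 mitosis genes and 10 of 14 p53 targets.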

Additional observations from a re-analysis of the deposited data

Results flagged for a closer look

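The change after X-rays differed between cultures of fibroblasts and CM-enriched fractions in 6 probe-sets, by limma's test of the difference itself (n = 3 pairs in each population). Culture and harvest also differed between the populations. It was lower in fibroblasts for Sprr1a (-2.40, SE 0.34, adjusted p = 0.0429), Dpep1 (-1.61, SE 0.25, adjusted p = 0.0481) and Hsd11b1 (-0.81, SE 0.13, adjusted p = 0.0484). It was higher in fibroblasts for Kifc1 (3.43, SE 0.49), Scd2 (1.44, SE 0.20) and Scd (1.199, SE 0.18), each with an adjusted p of 0.0429. In all 6, the change in CM-enriched fractions was past the threshold and that in fibroblasts was not. Kifc1 lay at or near the floor in fibroblasts with and without X-rays, so no fall could be measured there, and other probe-sets of Dpep1, Scd (0.04), Scd2 (0.68 on the brightest) and Sprr1a (-1.51 on the brightest) did not pass. The other Scd probe-set gave no change at all in CM-enriched fractions, as values at the floor do, so a fall there could not be measured. With any 1 fibroblast experiment left out, the adjusted p of each lay between 0.0747 and 0.220.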

How the results depend on the processing

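The 7 called probe-sets kept their direction under all 12 alternatives, with adjusted p values of 7.43e-05 to 0.798 for Ephx1, 0.000983 to 0.798 for Mdm2, 0.00157 to 0.798 for Pttg1, 0.00123 to 0.798 for Racgap1, 0.00391 to 0.798 for Top2a, 0.0111 to 0.798 for Cdc20 and 0.00354 to 1 for Abcb1b. Of 129 named probe-sets, 31 changed sign under some alternative, and none of these was called. The main counts were 3 probe-sets higher and 4 lower. Without the replicate block they were 2 and 4 (4 of the 6 shared with the 7), and Abcb1b (adjusted p = 1), Cdc20 (0.790) and Top2a (0.184) were lost. The counts were 7 and 9 with a random block, and 6 and 12 when only probe-sets above the floor on 3 of 6 arrays were tested. With a pseudocount 6 were higher. With only the 6 arrays of the comparison both counts were 0 (222 and 275 at an unadjusted p under 0.05), which has fewer residual degrees of freedom, and with the 18 fibroblast arrays they were 1 and 0 (347 lower at an unadjusted p under 0.05). Leaving out 1 experiment gave 0 to 13 higher and 0 to 18 lower, fewest without experiment 2 and most without experiment 3. The median of the p53 list stayed at 0.22 to 0.35 when an experiment was left out. That of the mitosis list was -0.61 to -0.39, but -0.022 with a floor at the 40th percentile, which gives all values below it the same level.

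For the difference between fibroblasts and CM-enriched fractions, the counts of 3 and 3 became 0 and 0 without the replicate block (184 and 140 at an unadjusted p under 0.05) and with a random block (360 and 280), and 14 and 6 with the higher floor. The count lower was 0 on scaled values without quantile normalisation (368 at an unadjusted p under 0.05), 1 with a pseudocount and 1 after the filter. Leaving out 1 experiment gave 0 to 1 in each direction. Counts for X-rays against UVC were 273 higher and 231 lower without the replicate block. The cause of these changes was not tested. Genes of 11.2 to 41.1 mean intensity have the widest errors, and values at the floor have no order.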
